A study of Mus musculus with 26 samples.

Results

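Flrt1, Flrt2, Flrt3, Tenm1, Tenm2, Tenm3, Tenm4, Adgrl1, Adgrl2 and Adgrl3 were followed in nuclei of the embryonic mouse cortex. These are 10 genes of the 30406 that could be joined by identifier across 8 libraries, and they make up the Flrt, teneurin and latrophilin families. The members were chosen by symbol, with the wild-type comparison of maternal immune activation (MIA) in view, in which Flrt1 and Tenm4 had been seen to be higher. The wild-type MIA values are therefore a description and carry no test.

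The nuclei came from the prospective S1 (somatosensory) cortex of male C57Bl/6N embryos at E15.5, and the 8 libraries are part of a series of 26. Their dams had received an intraperitoneal injection of saline or of poly(I:C), which mimics the double-stranded RNA of viruses, at E12.5. The embryos were wild type (WT) or lacked Csf1r, the receptor that microglia need to survive, in every cell (Csf1r-/-, here Csf1r-null). This gave 4 groups of 2 libraries each, namely WT saline, WT MIA, Csf1r-null saline and Csf1r-null MIA, and a library is named here by its group and replicate number. The WT embryos were littermates of the Csf1r-null ones, and the labels tie no library to a dam. The paper counts 4 pregnant dams in all for these nuclei, so some of the 8 libraries share a dam. The injection was given to the dam, and p-values measure only the spread between these libraries and not that between treated dams.

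Flrt proteins are leucine-rich repeat proteins of the cell surface that act as adhesion molecules in the membrane and, once shed, as repellents for axons and neurons that carry Unc5 receptors. Teneurins (Tenm genes) are very large transmembrane proteins that bind each other across cells. Latrophilins (Adgrl genes) are adhesion G protein-coupled receptors that bind both Flrt proteins and teneurins. In the developing cortex these contacts are known from the radial migration of young neurons and from the choice of synaptic partners.

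The targeted gene was read first. Csf1r gave 23 and 11 UMIs (unique molecular identifiers, each a tagged RNA molecule) in WT saline 1 and 2. WT MIA 1 had 22, but the library labelled WT MIA 2 had 0. Csf1r-null saline 1 had 4, but the library labelled Csf1r-null saline 2 had 10, and Csf1r-null MIA 1 and 2 had 2 and 1. Microglia-like nuclei went the same way, with 0 in the library labelled WT MIA 2 and 7 in the one labelled Csf1r-null saline 2. These 2 libraries thus go against their labels, and the changes of the named genes and the counts of changes above and below 0 are given with and without them. The counts of pairs whose libraries do not overlap are given with all libraries, since a group of 1 library has no spread. Without these 2 libraries, WT MIA and Csf1r-null saline keep replicate 1 only, while the other groups keep both replicates. Differences between replicates then enter the changes. The libraries held between 9897721 and 17605575 UMIs in nuclei, with a median of 1469 to 2953.5 UMIs per nucleus, and any 2 libraries shared at most 14 barcodes. WT saline 1 stood apart in its make-up, as 20.3% of its nuclei fell in 1 cluster (cluster 11) led by Adarb2, Dlx6os1, Six3 and Isl1, against at most 54 nuclei in any other library.

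After removal of doublets 41539 nuclei were left, and they were grouped without the use of the 10 members. The classes are called by their markers. The markers fixed by name were highest in the class itself for 5 of 8 in apical-progenitor-like nuclei (3338), 6 of 6 in dividing-progenitor-like nuclei (1576), 6 of 7 in intermediate-progenitor-like nuclei (4955, of which 815 formed a cluster led mainly by replication genes such as Clspn and Rrm2) and 4 of 6 in MGE-interneuron-like nuclei (2248). For the neurons the borders were less sharp, at 3 of 6 in migrating-neuron-like nuclei (5816), 3 of 8 in callosal-like nuclei (1763), 2 of 5 in subcerebral-like nuclei (4592) and 4 of 6 in corticothalamic-like nuclei (7660). A pair of clusters stayed unnamed: cluster 1 (6326 nuclei), led by Myt1l, Nkain3, Robo2 and Nrp1, and cluster 7 (1984 nuclei), led by mitochondrial transcripts and Cntn2. With another random seed of the clustering, 83.611% of nuclei kept their class and no cluster held mostly callosal-like nuclei. These 10 classes had at least 20 nuclei in every library and were compared. Levels are CPM (a gene's UMIs scaled to a fixed total) of the summed nuclei of a class in a library, as mean ± SD over 8 libraries unless stated. They compare classes for the same gene and not 1 gene with another, since no value per length was made.

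Windows of 250 bases upstream of the start are shown for the 4 members whose RefSeq start lay within 10 bases of the GENCODE gene start (GRCm38.p6). Only Flrt2 and Flrt3 among them belong to the same family. Capitals mark a match to the GC box (GGGCGG or its reverse CCGCCC), the TATA box (TATAAA or TTTATA), the CCAAT box (CCAAT or ATTGG) or the E-box of proneural factors (CAGATG or CATCTG), searched on both strands.
Flrt2, chr12:95691976-95692225, plus strand: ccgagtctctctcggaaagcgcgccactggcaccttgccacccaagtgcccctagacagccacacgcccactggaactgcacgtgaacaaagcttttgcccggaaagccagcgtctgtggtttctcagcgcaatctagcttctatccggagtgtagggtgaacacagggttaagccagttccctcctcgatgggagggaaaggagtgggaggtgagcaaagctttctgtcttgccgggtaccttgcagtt
Flrt3, chr2:140671477-140671726, minus strand: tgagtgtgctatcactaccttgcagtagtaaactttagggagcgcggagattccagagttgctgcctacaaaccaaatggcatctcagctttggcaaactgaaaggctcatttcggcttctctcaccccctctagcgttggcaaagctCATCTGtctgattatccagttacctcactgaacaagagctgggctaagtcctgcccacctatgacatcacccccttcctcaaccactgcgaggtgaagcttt
Tenm4, chr7:96170994-96171243, plus strand: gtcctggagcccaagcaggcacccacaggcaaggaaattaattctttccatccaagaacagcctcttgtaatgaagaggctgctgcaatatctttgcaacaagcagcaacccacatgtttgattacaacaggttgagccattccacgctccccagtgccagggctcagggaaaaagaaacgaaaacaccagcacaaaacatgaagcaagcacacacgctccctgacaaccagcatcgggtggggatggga
Adgrl1, chr8:83899848-83900097, plus strand: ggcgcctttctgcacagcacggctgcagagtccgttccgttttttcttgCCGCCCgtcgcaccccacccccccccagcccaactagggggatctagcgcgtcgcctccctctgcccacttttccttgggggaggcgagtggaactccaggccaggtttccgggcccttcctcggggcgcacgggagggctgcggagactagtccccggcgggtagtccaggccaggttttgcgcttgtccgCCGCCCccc
The Adgrl1 window was 68.8% GC and held 2 GC boxes. The Flrt3 window was 50.0% GC and held 1 E-box. The windows of Flrt2 (57.2% GC) and Tenm4 (50.8% GC) held none of the 4 motifs. Among 32851 RefSeq promoter windows of the same length, 32.742% held a GC box, 14.444% the E-box, 33.85% a CCAAT box and 12.368% a TATA box. A match or its absence describes these letters only. RefSeq windows were found for 9 of 10 members, at 12 start sites, and Flrt1 had no entry.

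Each of the 10 genes was higher in the summed counts of the projection-neuron-like and migrating-neuron-like classes and unnamed cluster 1 than in apical-progenitor-like nuclei in 8 of 8 libraries, as were 21.2% of the 9686 genes of at least 20 CPM in at least 1 class. The difference was smallest for Tenm3, at log2 0.82 ± 0.42 (SD, n = 8), and for Adgrl2, at 0.97 ± 0.17. It was largest for Tenm1, at 4.59 ± 0.72, and for Adgrl3, at 3.73 ± 0.97. MGE-interneuron-like nuclei were not in that sum, and there Tenm3 (18.4 CPM) and Tenm4 (44.5 CPM) had lower means than in apical-progenitor-like nuclei (37.4 and 84.7 CPM). Within the neurons the relatives parted, so that each family had members with different highest classes. Only for Tenm1 did the lowest library of the highest class lie above every library of every other class, which is 1 of 10 members against 7.03% of expressed genes.

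**Figure D1:**
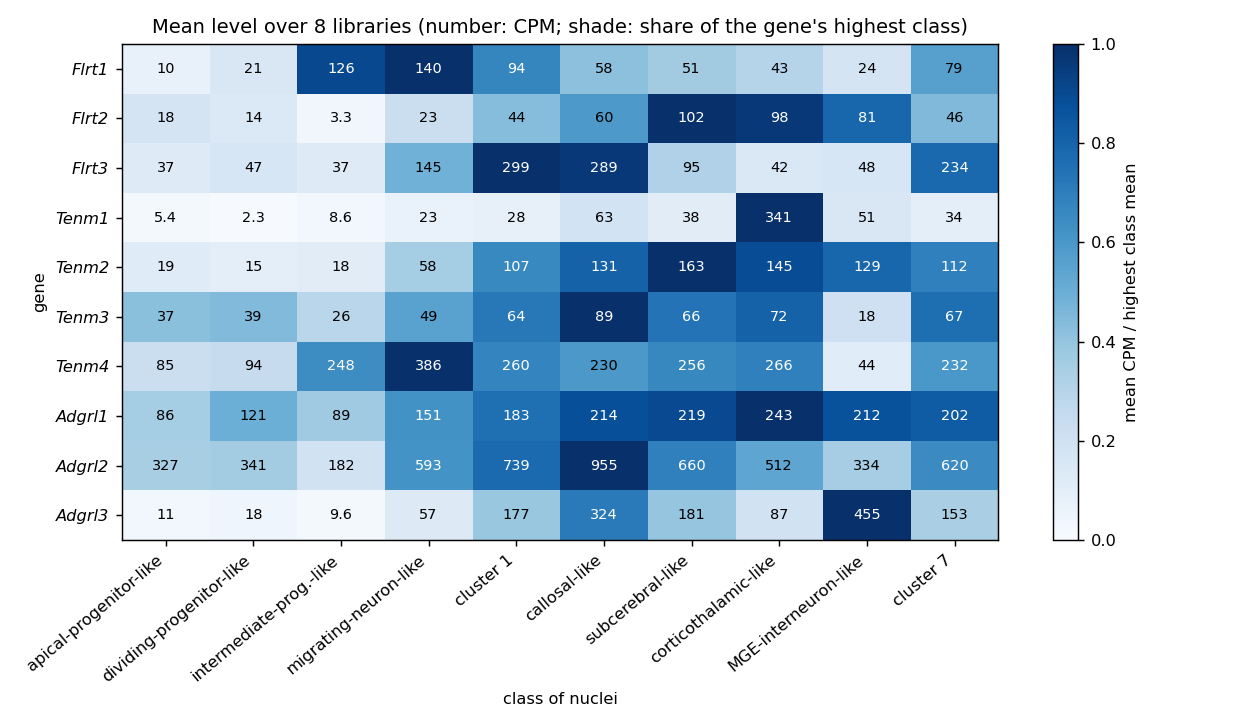
Mean level of each gene (rows) in each class of nuclei (columns), as CPM over 8 libraries, with the shade giving the share of the gene's own highest class. Tenm1 stands at 340.7 CPM in corticothalamic-like nuclei and at 62.6 or less elsewhere, whereas Adgrl1 spans 86.0 to 243.2.

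The Flrt genes are taken first. Flrt1, which binds to itself across cells, was highest in migrating-neuron-like nuclei among the 10 compared classes. It stood at 139.9 ± 67.8 CPM in migrating-neuron-like nuclei, where the lowest library had 72.8, the median was 122.3 and the highest had 243.8. Intermediate-progenitor-like nuclei were next at 126.3 ± 49.2 CPM (lowest 76.0, median 126.7, highest 225.5), and the 2 classes were in this order in 5 of 8 libraries. Lower levels followed in cluster 1 (93.7 CPM), cluster 7 (78.6), callosal-like (58.1), subcerebral-like (50.5) and corticothalamic-like nuclei (42.5), and the lowest in apical-progenitor-like nuclei at 10.4 ± 7.21 CPM. Flrt1 thus differed 13.5-fold between its highest and lowest class, and the step between intermediate-progenitor-like nuclei and cluster 1 held in 8 of 8 libraries. With another seed the intermediate-progenitor-like nuclei were the highest, at 135.5 CPM. The dividing-progenitor-like class joined unlike clusters. Its smaller cluster (244 nuclei), led by Cenpe, Cenpf and Mki67, had 149.3 ± 61.9 CPM of Flrt1, as high as migrating-neuron-like nuclei. Its larger cluster (1332 nuclei) had 6.16 ± 3.76 CPM.

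Flrt2, whose shed ectodomain repels Unc5-bearing neurons, had other highest and lowest classes than Flrt1. It stood at 101.8 ± 32.1 CPM in subcerebral-like nuclei (lowest 50.2, median 104.6, highest 150.5) and at 98.2 ± 26.0 CPM in corticothalamic-like nuclei, an order that held in 5 of 8 libraries. MGE-interneuron-like nuclei had 80.5 ± 32.1 CPM. In intermediate-progenitor-like nuclei, where Flrt1 was near its highest, Flrt2 was at 3.31 ± 2.54 CPM, from 1.04 to 8.61, below dividing-progenitor-like nuclei in 8 of 8 libraries. Outside the compared classes, cluster 11 gave 228.9 CPM of Flrt2 over its pooled nuclei (exact Poisson 95% interval 209.5 to 249.7, counting error only). The highest pooled value of a compared class was 102.1 CPM, in corticothalamic-like nuclei. However, 918 of the 1055 nuclei of cluster 11 came from WT saline 1. As a mean over 8 libraries cluster 11 had 50.1 ± 96.4 CPM (lowest 0.0, highest 249.1), below subcerebral-like nuclei.

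Flrt3, the third Flrt gene, which also binds Unc5 and Robo receptors, was highest in cluster 1 at 299.3 ± 38.5 CPM (lowest 238.0, median 291.5, highest 346.2) and in callosal-like nuclei at 289.2 ± 60.8 CPM (lowest 226.6, median 275, highest 402.3). The order of these 2 held in 6 of 8 libraries. Cluster 7 had 233.8 CPM and migrating-neuron-like nuclei 145.3 ± 22.3 CPM, and the latter lay above subcerebral-like nuclei (94.7 ± 12.3 CPM) in 8 of 8 libraries. In corticothalamic-like nuclei, the class next to the highest for Flrt2, Flrt3 was at 42.2 ± 9.23 CPM, within the spread of its progenitor levels of 36.9 to 47.2 CPM.

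The ratio of relatives within a library does not depend on the library's depth. The log2 ratio of Flrt3 to Flrt2 was 2.76 in cluster 1 and -1.18 in corticothalamic-like nuclei, a difference of 3.95 ± 0.44 (SD, n = 8) with a range of 3.04 to 4.45. That of Flrt1 to Flrt3 was 1.70 in intermediate-progenitor-like nuclei and -2.42 in callosal-like nuclei, and differed by 4.11 ± 0.51, from 3.53 to 5.00. Both differences had the same sign in 8 of 8 libraries. Over the 10 class means, Pearson's r of log2(CPM + 1) was -0.14 between Flrt1 and Flrt2 and 0.54 between Flrt1 and Flrt3, values that describe 10 points sharing the same libraries.

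**Figure D2:**
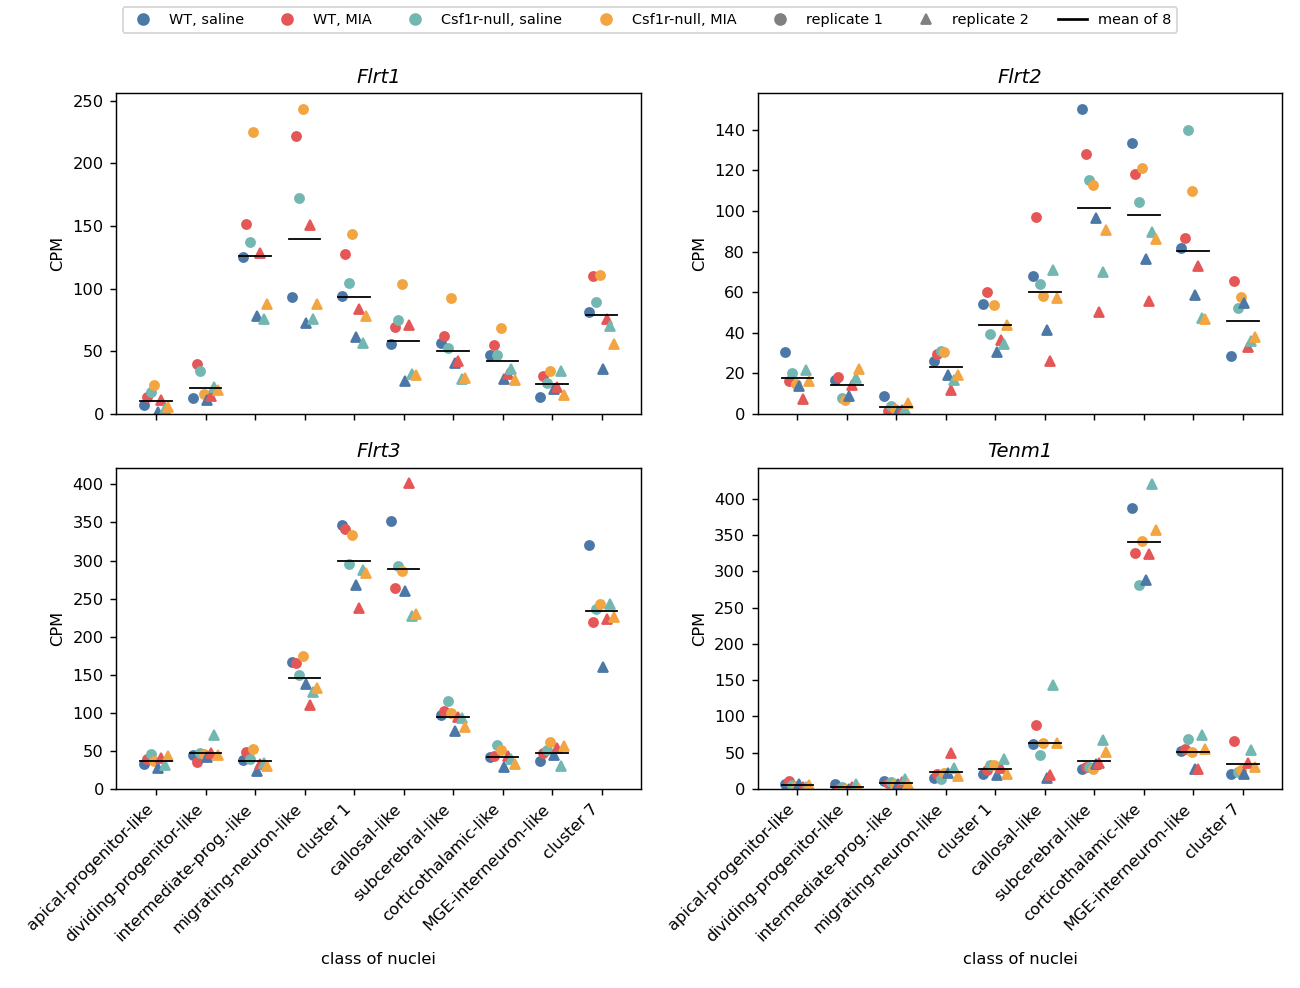
Level in CPM of Flrt1, Flrt2, Flrt3 and Tenm1 in each library and class, with colour for the group, circles for replicate 1, triangles for replicate 2 and a line for the mean of 8 libraries. The lowest corticothalamic-like library of Tenm1, at 281.4 CPM, lies above the highest library of any other class, at 143.4.

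Among the teneurins, Tenm1 had the sharpest pattern. In corticothalamic-like nuclei it stood at 340.7 ± 47.5 CPM (lowest 281.4, median 333.6, highest 421.2). Callosal-like nuclei followed at 62.6 ± 40.5 CPM, from 15.3 to 143.4, and MGE-interneuron-like nuclei at 51.3 ± 17.0 CPM. Subcerebral-like nuclei, the other deep-layer class, had 37.7 ± 14.1 CPM, and dividing-progenitor-like nuclei had 2.26 ± 2.94 CPM from 7 UMIs in all. Corticothalamic-like nuclei were the highest in 8 of 8 libraries. Tenm1 was also among the 10 leading genes of the smaller corticothalamic-like cluster (1193 nuclei), although it took no part in the clustering. That cluster had 617.3 ± 47.6 CPM of Tenm1, and the larger one 276.1 ± 50.3 CPM. Tenm4 went the other way, at 128.3 ± 35.6 and 297.5 ± 69.7 CPM, so the class values join unlike clusters.

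Tenm2, a teneurin that binds latrophilins at synapses, was spread over the maturing neurons. Its level was 162.8 ± 53.7 CPM in subcerebral-like nuclei (lowest 97.2, median 171.3, highest 231.2), 145 ± 47.7 in corticothalamic-like, 131.4 ± 34.7 in callosal-like and 128.8 ± 43.6 in MGE-interneuron-like nuclei. These steps held in 4 to 6 of 8 libraries, so that the 4 classes did not part beyond their spread. Migrating-neuron-like nuclei had 57.6 ± 16.8 CPM, below cluster 1 in 8 of 8 libraries, and the 3 progenitor classes had 15.4 to 19.5 CPM.

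Tenm3, known for matching of partners in the visual and hippocampal pathways, varied less between classes. Callosal-like nuclei had 88.7 ± 27.0 CPM (lowest 53.1, median 104.0, highest 119.4), corticothalamic-like nuclei 71.6 ± 15.54 CPM and subcerebral-like nuclei 65.8 ± 10.3 CPM. The order of the first 2 held in 5 of 8 libraries, and with another seed cluster 1 was the highest at 72.9 CPM. MGE-interneuron-like nuclei were the lowest at 18.4 ± 10.3 CPM.

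Tenm4 was highest in migrating-neuron-like nuclei, at 386.1 ± 97.0 CPM (lowest 244.1, median 379.4, highest 517.6), and this class was the highest in 8 of 8 libraries. A group of 6 classes followed between 229.9 CPM (callosal-like) and 265.8 CPM (corticothalamic-like), whose order held in only 4 to 6 of 8 libraries at each step. Intermediate-progenitor-like nuclei belonged to this group at 248.1 ± 65.8 CPM, whereas apical-progenitor-like nuclei had 84.7 ± 25.2 CPM. MGE-interneuron-like nuclei, in which Tenm4 was lowest, had 44.5 ± 15.6 CPM. The log2 ratio of Tenm1 to Tenm4 was 0.38 in corticothalamic-like and -4.05 in migrating-neuron-like nuclei, a difference of 4.43 ± 0.61 (SD, n = 8) that ranged from 3.17 to 5.06.

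Of the latrophilins, Adgrl1 was the most even, with a ratio of 2.83 between its highest and lowest class. It stood at 243.2 ± 57.4 CPM in corticothalamic-like nuclei (lowest 179.7, median 233.3, highest 311.8), 218.8 ± 54.6 in subcerebral-like nuclei and 86.0 ± 27.2 in apical-progenitor-like nuclei. Corticothalamic-like nuclei lay above subcerebral-like nuclei in 8 of 8 libraries, though the ranges of the 2 classes overlapped. Adgrl2 was highest in callosal-like nuclei, at 954.7 ± 115.1 CPM (lowest 792.9, median 969.9, highest 1111). Cluster 1 followed at 738.8 ± 88.8 CPM and subcerebral-like nuclei at 659.7 ± 57.6 CPM, and both steps held in 8 of 8 libraries. With another seed, which left no callosal-like cluster, cluster 1 was the highest at 805.8 CPM. Intermediate-progenitor-like nuclei were lowest for Adgrl2, at 182.3 ± 21.1 CPM, below apical-progenitor-like nuclei (327.4 ± 51.7 CPM) in 8 of 8 libraries.

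Adgrl3, a latrophilin that joins Flrt3 and teneurins at synapses, was the only member for which MGE-interneuron-like nuclei were the highest of the 10 compared classes. MGE-interneuron-like nuclei had 455.2 ± 97.4 CPM (lowest 314.3, median 463.6, highest 570.7) and callosal-like nuclei 323.9 ± 73.1 CPM (lowest 220.6, median 353.9, highest 411.4), in this order in 7 of 8 libraries. Corticothalamic-like nuclei had 86.9 ± 11.3 CPM and intermediate-progenitor-like nuclei 9.55 ± 4.67 CPM. The log2 ratio of Adgrl3 to Adgrl2 was 0.44 in MGE-interneuron-like and -2.55 in corticothalamic-like nuclei, a difference of 2.98 ± 0.26 (SD, n = 8) that ranged from 2.59 to 3.30.

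Free RNA can add to these levels, by an amount that was not measured. In droplets of 10 to 99 UMIs, which only the replicate 1 libraries list, the members had between 25.8 and 43.9 CPM (Flrt1) and between 177 and 249.8 CPM (Adgrl2). The mean of a class was at or under the highest value in these droplets in 40 of 100 pairs of a member and a class, from 1 of 10 classes for Adgrl2 to 7 of 10 for Flrt2 and Tenm1. No expression is read from those levels, and the folds and ratios that rest on them describe the UMIs in nuclei, free RNA included. Droplet CPM is a gene's share of free RNA and not the amount in a nucleus, so it is a cautious mark and no floor. Tenm1 had 2.26 CPM in dividing-progenitor-like nuclei, against 30.3 to 38.9 CPM in the droplets. The rare classes gave few counts, and no member is compared in them. Cajal-Retzius-like nuclei (137) gave 308.7 CPM of Adgrl3 (exact Poisson 95% interval 263.0 to 360.0) and 181.0 CPM of Flrt3 (146.5 to 221.3). In the 31 microglia-like nuclei Flrt1, Tenm1, Adgrl1 and Adgrl3 gave 0 UMIs, which allows up to 55.1 CPM by a limit of 3 counts and 67.7 CPM by the upper end of the exact Poisson interval.

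The genes with the most similar class pattern were sought among the 9686 genes by Pearson's r of log2(CPM + 1) over the 10 class means, which share libraries and are few. For Flrt1 these were Igfbpl1 (r = 0.98), Ppp1r14a and Abca7. For Flrt3 they were 1700080N15Rik (0.98), Sik2 and Bcl6, and for Tenm1 Cd200 (0.96), Ids and Zfp995. Tenm4 was nearest to Focad (0.96) and Zbtb18, Adgrl2 to Osbpl6 (0.95), Lhfp and Mmp17, and Adgrl3 to Scube1 (0.98), Arrb1 and Mical3. Flrt2 was nearest to Nipa1 (0.98), Nudt11 and Atp2b1, Tenm2 to Ica1 (0.99), Pcnx2 and Bmyc, Tenm3 to Sema4d (0.96), Slc8a2 and Dpy19l1, and Adgrl1 to Sh3gl3 (0.99), Erc2 and Rundc3b. Among the members themselves the closest were Tenm2 and Adgrl1 (0.95).

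The known binding partners add to this map, from a list of 15 genes fixed by name. Unc5d, a receptor for Flrt2 and Flrt3, was highest in migrating-neuron-like nuclei at 487.1 ± 75.9 CPM and lowest in corticothalamic-like nuclei at 3.29 CPM, where Flrt2 was near its highest. Nrxn3, a presynaptic partner of latrophilins, had 2648 ± 303.6 CPM in MGE-interneuron-like nuclei and 13.98 in the next class. Both genes were above the next class in 8 of 8 libraries. The fibroblast growth factor receptors Fgfr1, Fgfr2 and Fgfr3, which bind Flrt proteins, were highest in apical-progenitor-like nuclei, at 227.0 ± 34.6, 133.5 ± 38.5 and 160.7 ± 21.7 CPM. They lay above the next class in 6, 5 and 7 of 8 libraries, and the next class for Fgfr2 was subcerebral-like nuclei at 118.9 CPM. Robo1 was nearly level in subcerebral-like (262.5 CPM) and callosal-like nuclei (260.7), and Adgrl4 passed the filter on low counts in none of the classes.

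The response to MIA was then described in wild type, the comparison that chose the members. Of 100 pairs of a member and a class 95 passed the filter on low counts. The missing ones were Flrt2 and Tenm1 in 2 classes each and Tenm2 in 1, with mean levels of 2.26 to 15.4 CPM. The log2 change (MIA minus saline) was above 0 in 74 of 95 pairs, with a median of 0.26. Over all genes 51.1% of 96187 pairs were above 0, with a median of 0.01. Both MIA libraries lay above both saline libraries in 40 of the 95 pairs (42.1%), where 18.5% of all pairs did, and below them in 2, where 18.7% of all pairs did. Since the choice of members used this contrast, nothing is read from these counts.

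Flrt1 in migrating-neuron-like nuclei had normalised CPM of 91.2 and 78.2 in WT saline 1 and 2 and of 215.6 and 154.1 in WT MIA 1 and 2, a log2 change of 1.12. In the same order Tenm4 in these nuclei had 291.7, 262.3, 474.7 and 407.3, a change of 0.67. In corticothalamic-like nuclei Tenm4 had 217.0 and 205.4 after saline and 301.2 and 292.0 after MIA, a change of 0.49. In these 3 pairs both MIA libraries were above both saline libraries. Tenm4 in callosal-like nuclei had 211.2 and 165.8 after saline and 231.5 and 276.1 after MIA (0.41), again with no overlap. WT MIA 2 held only 59 callosal-like nuclei, against 168 to 334 in the other libraries. Adgrl2 in subcerebral-like nuclei had 569.7 and 619.3 after saline and 706.6 and 695.2 after MIA (0.24), also with no overlap. Within replicate 1 alone, MIA over saline gave log2 1.23, 0.70, 0.47, 0.13 and 0.31 in these 5 pairs. Without both libraries that go against their labels, the 5 changes were 1.34, 0.77, 0.53, 0.30 and 0.27, and Tenm4 in callosal-like nuclei was 0.23 without WT saline 2. The share of pairs above 0 was then 80.6%, against 77.9% with all libraries, 59.2% without WT saline 2, 88.7% without WT saline 1 and 66.3% with the mitochondrial and ribosomal share as a covariate. With all libraries Flrt1, Tenm4 and Adgrl1 were above 0 in 10 of 10 classes and Adgrl2 in 9, whereas Adgrl3 was below 0 in 7 of 10 (median -0.08). Without both libraries the first 4 genes kept these counts, and Adgrl3 was below 0 in 5 of 10.

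**Figure D3:**
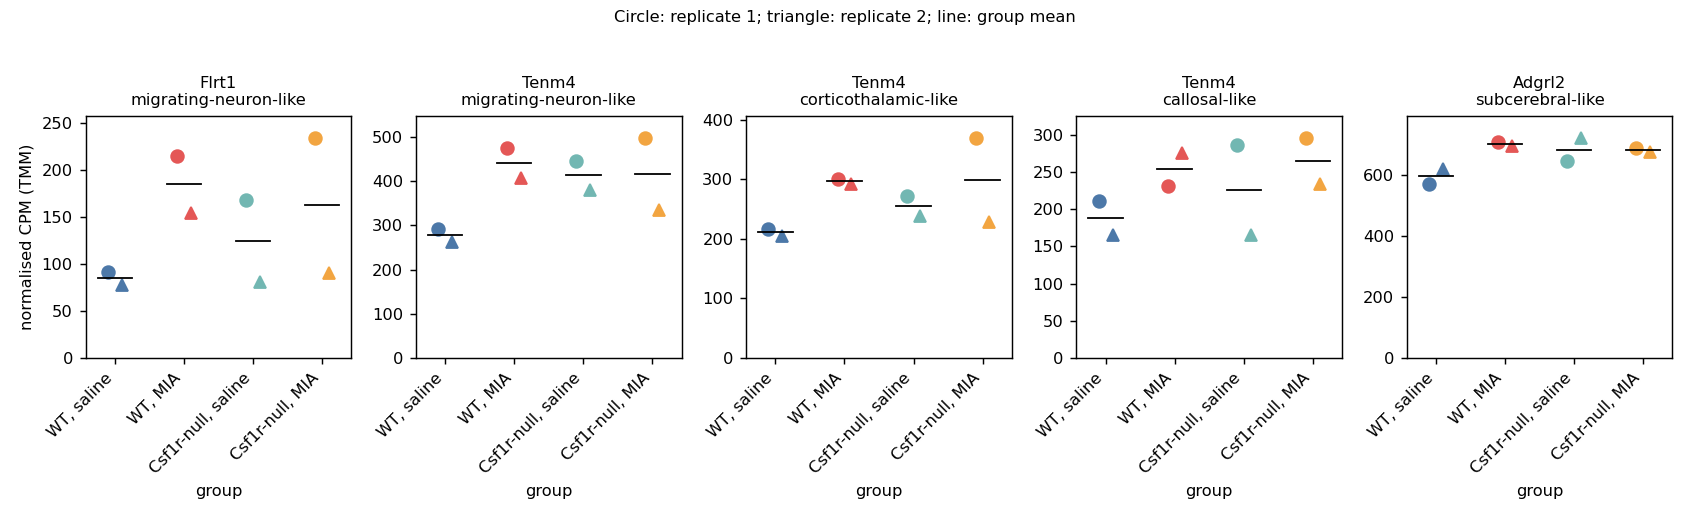
Normalised CPM (TMM) in each of 8 libraries for the 5 pairs named by rule, with circles for replicate 1, triangles for replicate 2 and lines for group means. The WT MIA libraries lie above the WT saline libraries in each panel, while the Csf1r-null saline and MIA libraries overlap in each if replicate numbers are set aside. The pairs come from the study's lists of changed genes, so nothing is read from this contrast of genotypes. WT MIA 2 and Csf1r-null saline 2 are drawn by their labels, which they go against.

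In Csf1r-null embryos the question was how these genes stood after MIA without Csf1r. The study had already reported from this series that Flrt1 rose in wild type and not in Csf1r-null embryos. For pairs taken from its lists of changed genes, the lack of a call here is therefore no independent result. No pair of a member and a class passed an adjusted p of 0.05 (edgeR quasi-likelihood test, Benjamini-Hochberg adjustment over all genes of a class), as 0% of all pairs did, and the lowest adjusted p was 0.9995. Unadjusted p was under 0.05 for 0 of the 95 pairs, and for 1323 of all 96187 pairs (1.375%). DESeq2 also called 0 pairs of any gene, and edgeR called 6 under a replicate block, none of a member. Without that block, differences between replicates stay in the spread of the test. The lack of a call therefore does not show that there was no response. The members were above 0 in 49 pairs and below 0 in 46, with a median log2 change of 0.01, and without both libraries that go against their labels in 43 and 55, with a median of -0.06. With all libraries, both MIA libraries lay above both saline libraries in 4 pairs (4.211%, against 12.3% of all pairs) and below them in 13 (13.684%, against 11.9%).

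Flrt1 in migrating-neuron-like nuclei had normalised CPM of 167.8 and 80.4 in Csf1r-null saline 1 and 2 and of 234.2 and 90.8 in Csf1r-null MIA 1 and 2. Within each replicate number the MIA library was above the saline library, by log2 0.48 in replicate 1 and 0.17 in replicate 2, while replicate 1 was above replicate 2 in both groups. The log2 change was 0.38 ± 0.42 (SE, edgeR adjusted p = 1.0), and 0.35 with the replicate block (edgeR adjusted p = 0.999). The 95% interval of the first was -0.44 to 1.20. Intervals here are normal approximations from the SE and are narrower than the test itself would give. Tenm4 there had 445.7 and 379.8 after saline and 497.3 and 334.1 after MIA, a change of 0.01 ± 0.22 (interval -0.43 to 0.45; edgeR adjusted p = 1.0). Whether the responses of the genotypes differ was not tested, since the difference contains the contrast that chose the members.

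Tenm4 in corticothalamic-like nuclei had 271.6 and 238.3 after saline and 369.5 and 228.7 after MIA, with a change of 0.23 ± 0.22. In callosal-like nuclei Tenm4 had 285.9 and 165.7 after saline and 295.7 and 234.4 after MIA (0.22 ± 0.28), higher after MIA within each replicate number. Adgrl2 in subcerebral-like nuclei had 643.7 and 719.8 after saline and 686.7 and 672.9 after MIA (-0.003 ± 0.18). Saline and MIA libraries overlapped in all 5 pairs when replicate numbers are set aside, and the change had 1 sign in both replicates for Flrt1 and for Tenm4 in callosal-like nuclei. Without both libraries that go against their labels, the 5 changes were -0.03, -0.09, 0.13, -0.10 and 0.07, so that 4 of 5 changed sign. That fit sets saline replicate 1 alone against both MIA replicates. Within replicate 1, MIA over saline gave log2 0.48, 0.16, 0.44, 0.05 and 0.09, so nothing is read from the changes of sign. The smallest unadjusted p was that of Adgrl3 in apical-progenitor-like nuclei, with a log2 change of 1.29 ± 0.71 (edgeR, unadjusted p = 0.0925, adjusted p = 1.0), which rests on 63 UMIs over 8 libraries. It was 2.06 without both libraries that go against their labels, 2.06 without Csf1r-null saline 2 alone, 0.71 without Csf1r-null saline 1, 2.14 in nuclei of at least 1000 UMIs and 0.33 with doublets kept. Tenm1 was below 0 in 8 of 8 tested classes with all libraries but in 3 of 8 without both, so that no direction is read from it. Adgrl3 was below 0 in 9 of 10 with all libraries and without both, none past the test.

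Side by side, the WT change was above the Csf1r-null change in 76.8% of the 95 pairs, and in 77.6% of pairs without both libraries that go against their labels. This share was 45.4% without Csf1r-null MIA 2, and it ranged from 45.4% to 86.6% as each library was left out. Over all 96187 pairs it was 50.2%. It contains the WT contrast that chose the members, so nothing is read from it.

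Csf1r-null embryos were compared with wild type over both treatments. With all libraries this contrast is orthogonal to the WT response to MIA. Without both libraries that go against their labels the groups are unequal and it is not. The values without both are therefore not free of the choice of members. No pair of a member and a class passed (edgeR, lowest adjusted p = 0.738), and 0% of all 96187 pairs did. Unadjusted p was under 0.05 for 2 of 95 member pairs and for 3302 of all pairs (3.433%). DESeq2 called 5 pairs of any gene and edgeR with the replicate block 48, none of a member. The log2 difference (Csf1r-null minus WT) was above 0 in 74 of 95 pairs with a median of 0.12, beside 50.4% and 0.002 over all genes. Without both libraries that go against their labels it was above 0 in 71 of 98 pairs, with a median of 0.10, and 0 pairs had an unadjusted p under 0.05 by edgeR. Flrt1, Tenm4, Adgrl1 and Adgrl2 were above 0 in 10 of 10 classes, with all libraries and without both, but the classes share these libraries. Tenm2 was below 0 in 7 of 9 with all libraries and in 4 of 10 without both.

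Tenm4 in dividing-progenitor-like nuclei had the smallest unadjusted p. Normalised CPM was 58.1 and 53.1 in WT saline, 121.2 and 94.7 in WT MIA, 118.2 and 145.2 in Csf1r-null saline and 120.5 and 64.8 in Csf1r-null MIA, each in the order of replicates. The WT saline libraries were the 2 lowest of the 8, and the other 3 groups overlapped. The genotype difference was log2 0.53 ± 0.22 (SE; edgeR, unadjusted p = 0.0328, adjusted p = 0.738) and 0.36 (adjusted p = 0.9975) without both libraries that go against their labels. It was 0.24 without Csf1r-null MIA 1 and also 0.24 with the mitochondrial and ribosomal share as a covariate. In the pairs named above it was 0.19 ± 0.30 for Flrt1 and 0.25 ± 0.16 for Tenm4 in migrating-neuron-like nuclei, 0.14 ± 0.16 and 0.18 ± 0.20 for Tenm4 in corticothalamic-like and callosal-like nuclei, and 0.08 ± 0.12 for Adgrl2 in subcerebral-like nuclei. Without both libraries that go against their labels these 5 differences were 0.29, 0.25, 0.18, 0.40 and 0.03. Tenm4 in migrating-neuron-like nuclei was 0.09 without Csf1r-null MIA 1.

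**Figure D4:**
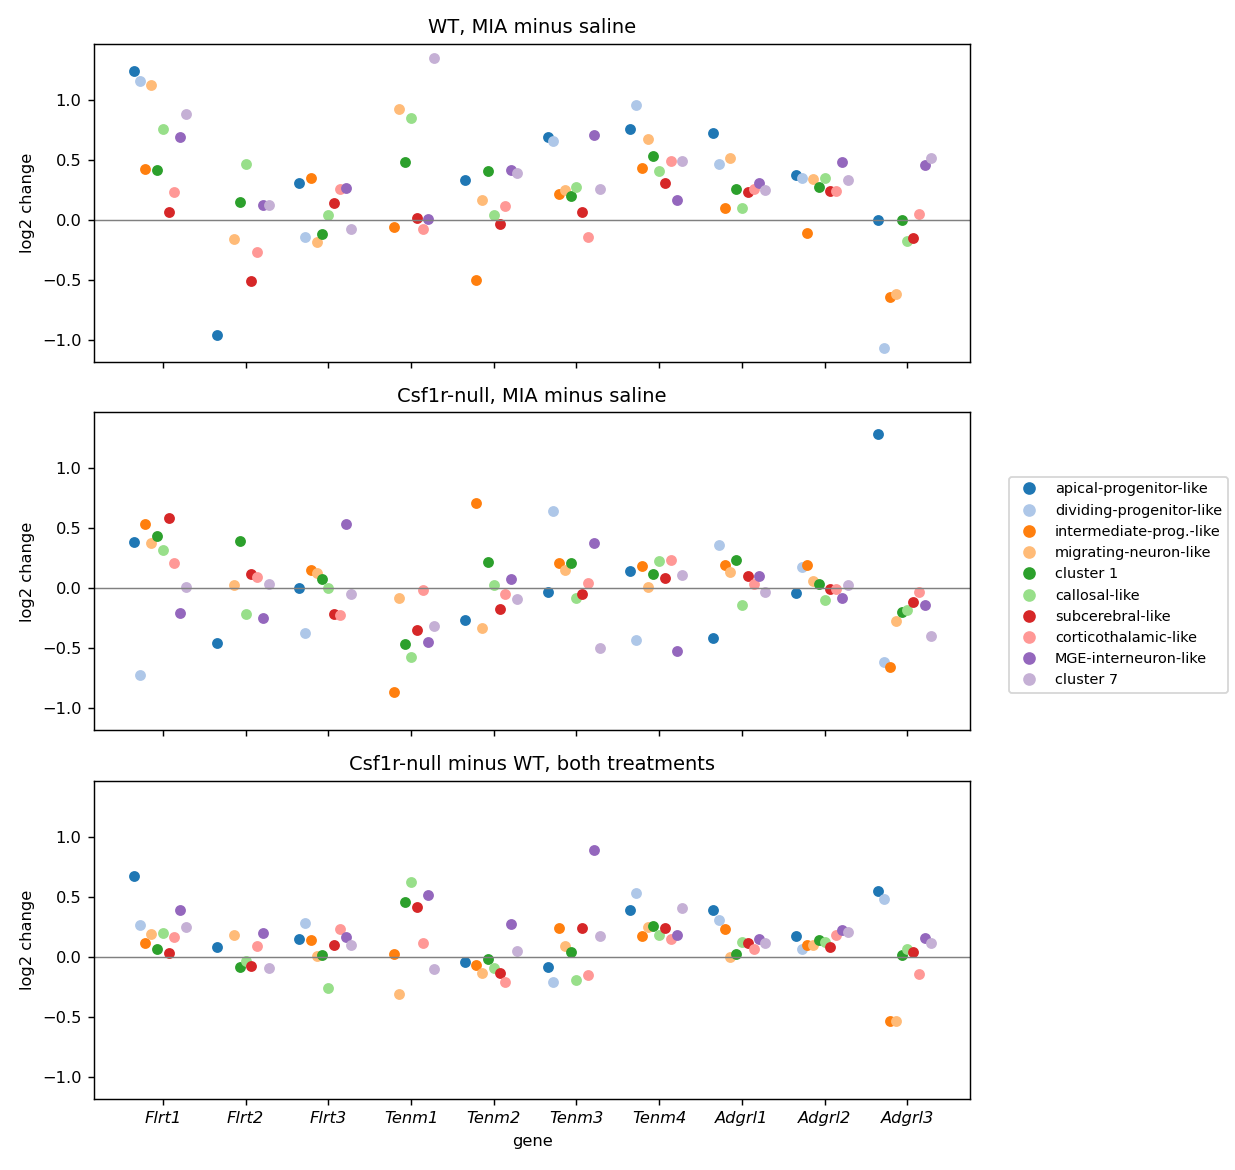
Log2 change of each member (x axis) in each class (colour) for MIA minus saline in WT, MIA minus saline in Csf1r-null, and Csf1r-null minus WT over both treatments. Of 95 pairs 74 lie above 0 in WT, 49 in Csf1r-null and 74 in the genotype comparison, and no pair of the last 2 passed the test.

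Levels differed by replicate number, and log2 changes differed by gene length in WT and between genotypes. By the median log2 difference over classes, replicate 2 libraries were lower than replicate 1 libraries for 9 of 10 members. The median was -0.80 for Flrt1, -0.58 for Adgrl1, -0.41 for Tenm4, -0.07 for Adgrl2 and 0.03 for Tenm1. In single classes Flrt2 and Flrt3 reached 0.31 and 0.24. The share over all genes was not computed, so nothing particular to the members is read from this. Replicate number also marks the gene list of the files, with 31053 genes in replicate 1 and 32285 in replicate 2. A software version is known here from the headers of the replicate 1 files only. Genes that span at least 100 kb had a higher median log2 change than other genes in 10 of 10 classes in WT (0.07 to 0.23, against -0.04 to -0.004) and in the genotype comparison (0.06 to 0.13). In Csf1r-null MIA this was so in 6 of 10. The members of that length are Tenm1 to Tenm4, Adgrl2 and Adgrl3, from 175.0 kb for Adgrl2 to 1229.3 kb for Tenm2. Flrt1 (13.7 kb, chr19:7092001-7105729) lies opposite Macrod1 and Flrt3 (20.6 kb, chr2:140650914-140671469) opposite Macrod2, in GRCm38 gene models. Both replicate numbers occur in each group. With the replicate block the share of member pairs above 0 in WT was 75.8%, against 77.9% without it. The part of gene length in the results was not tested, nor that of replicate number beyond this fit.

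The partner genes passed the filter in 96 pairs with a class. None passed the test in either tested comparison. After MIA in Csf1r-null embryos 42 pairs were above 0 and 54 below, with a median of -0.03, and 1 had an unadjusted p under 0.05. In the genotype comparison 65 were above 0 and 31 below, with a median of 0.07, and 2 had an unadjusted p under 0.05. In WT, where no test was made, 62 were above 0 after MIA, with a median of 0.11. Without both libraries that go against their labels 105 pairs passed the filter, of which 39 were above 0 after MIA in Csf1r-null, 59 in the genotype comparison and 66 after MIA in WT.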

How the data were processed

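Libraries were made from sorted nuclei with the 10x 3′ v3.1 chemistry. The authors deposited UMI counts per gene and barcode, aligned to mm10 and not normalised; the headers of the replicate 1 files name Cell Ranger 3.1.0. Barcodes of at least 500 UMIs and 200 genes were kept (43456), and the 1917 highest Scrublet scores were removed at an expected rate for each library's size. Nuclei were clustered (scanpy 1.11.5, 30 components, 20 neighbours, Leiden resolution 1) without the members, the partner genes, Csf1r and the study's changed genes. The rule that names clusters from marker lists was set after clusters were seen and before any test. Sums of UMIs over each class and library were tested in edgeR 4.0.16 (TMM, filterByExpr, quasi-likelihood), all 4 groups in 1 model; the path was tested on simulated data. Depth was 9897721 to 17605575 UMIs per library.

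Members and lists were chosen with earlier results of these data known. Pairs named are those of the study's lists of changed genes, any pair called, and the smallest p per tested contrast; likeness names the 3 genes of highest r, and a few genes that these lists hold are not reported here. Same-numbered replicates deviated together (60 of 60 correlations above 0.1, from 0.137 to 0.597), so the numbers pair the libraries. The values given are from the model without the block, as in the study's design, and the blocked fit is an alternative. SEs, intervals and p-values of the model without the block therefore include the differences between replicates. Other settings were size factors, DESeq2, no filter, a replicate block, a covariate, deeper nuclei, doublets kept and libraries left out.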

Additional observations from a re-analysis of the deposited data

Results flagged for a closer look

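Of 100 pairs of a member and a class, 5 had a library far from the other 7 by Dixon's gap ratio, where chance gives about 5. Flrt3 in dividing-progenitor-like nuclei was highest in the library labelled Csf1r-null saline 2, at 71.0 CPM. Tenm1 in migrating-neuron-like nuclei was highest in the library labelled WT MIA 2, at 49.2 CPM. Adgrl2 was highest in Csf1r-null MIA 1 in intermediate-progenitor-like nuclei, at 232.5 CPM, and lowest in WT saline 1 in MGE-interneuron-like nuclei, at 205.4 CPM. Adgrl3 in migrating-neuron-like nuclei was highest in WT saline 1, at 135.8 CPM.

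In 7 of 95 pairs (7.37%, against 4.22% of all pairs of a gene and a class) the libraries of WT and Csf1r-null embryos moved apart after MIA, with no overlap and in opposite directions, and the difference was not tested. The WT comparison is the one that chose the members, so nothing is read from this count. The log2 changes in WT and Csf1r-null were 1.16 and -0.73 for Flrt1 in dividing-progenitor-like nuclei, 0.48 and -0.46 for Tenm1 in cluster 1, and 0.52 and -0.40 for Adgrl3 in cluster 7. They were 0.33 and -0.27 for Tenm2 in apical-progenitor-like nuclei and 0.14 and -0.22 for Flrt3 in subcerebral-like nuclei. Adgrl2 had 0.48 and -0.083 in MGE-interneuron-like nuclei and, the other way round, -0.11 and 0.20 in intermediate-progenitor-like nuclei. Without both libraries that go against their labels, the 7 pairs of changes had, in the order given, 1.61 and -0.93, 0.38 and -0.26, 0.66 and -0.49, 0.53 and -0.08, 0.19 and -0.31, 0.53 and -0.083, and -0.075 and 0.20, with signs that the lack of overlap fixes.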

How the results depend on the processing

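No member or partner gene was called under any alternative, in either tested comparison. Over all genes, the Csf1r-null MIA comparison called 18 pairs with no filter, 6 with the replicate block, 6 with the covariate, 1 without both libraries that go against their labels and 0 to 2 with 1 library left out (2 without Csf1r-null saline 1, 1 without Csf1r-null saline 2). The genotype comparison called 78 with no filter, 48 with the replicate block, 13 with the covariate and 5 with DESeq2. With another seed of the clustering, chosen after seeing the data, 2 members stood apart in a class in place of 1. The share of pairs with a larger WT than Csf1r-null change was 45.361% to 86.598% with 1 library left out. The cause was not tested.

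In the tested comparisons, the signs that turned were of changes whose 95% interval held 0. After MIA in Csf1r-null, Flrt1 in migrating-neuron-like nuclei was -0.034 without both (and without Csf1r-null saline 2), and from -0.447 without Csf1r-null MIA 1 to 1.033 with 1 library left out. Tenm4 there was -0.004 with the replicate block, -0.022 in nuclei of at least 1000 UMIs, -0.025 with another seed, -0.091 without both, and from -0.285 without Csf1r-null MIA 1 to 0.274 with 1 library left out. Tenm4 was from -0.159 without Csf1r-null MIA 1 to 0.537 in corticothalamic-like nuclei, and -0.099 without both and from -0.096 without Csf1r-null saline 2 to 0.68 in callosal-like nuclei. Adgrl2 in subcerebral-like nuclei was 0.007 with no filter, 0.005 with doublets kept, 0.012 with another seed, 0.07 without both, and from -0.081 to 0.072 with 1 library left out (positive without Csf1r-null saline 2). Between genotypes, leaving out 1 library gave -0.226 (without Csf1r-null MIA 1; -0.129 without Csf1r-null saline 1) to 0.454 for Flrt1 in migrating-neuron-like nuclei, -0.052 (without Csf1r-null MIA 1) to 0.296 for Tenm4 in corticothalamic-like nuclei and -0.045 (without Csf1r-null saline 1) to 0.344 in callosal-like nuclei. The cause was not tested. In WT, Adgrl3 in apical-progenitor-like nuclei (-0.005) lay on either side of 0, from -0.664 without WT saline 2 to 2.145 without WT saline 1, with -0.666 under the covariate and 0.156 without both, and Tenm4 in dividing-progenitor-like nuclei moved from 0.959 to 0.523 under the covariate. The other 326 values of named pairs kept their sign and passed no threshold in the tested comparisons, or moved by less than the model's SE in WT. A tested value could move far and still count among these. Adgrl3 in apical-progenitor-like nuclei, for MIA in Csf1r-null, ran from 0.33 to 2.14. The replicate block changed no call of a member. With 2 libraries a group, the spread within groups limits what could be detected.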
